A study of Rattus norvegicus with 3 samples.

Results

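The complement genes described here are 9 components and regulators, C1QA, C1QB, C1QC, C1R, C1S, C2, C3, SERPING1 and CD59. They were chosen by name, as the entries whose symbol is one of these, and all 9 have an entry among the 12758 gene symbols of the deposited table. The RNA came from the spinal cords of female Sprague Dawley rats that were 3 months old. Every animal, controls included, had a laminectomy at T9 under isoflurane. SCI animals also received a contusion of 250 kdyne, while No-SCI animals received none, and after 24 h a piece of cord rostral to that level was collected. Cold-active protease loosened the tissue, cells were spun down, and RNA left in the supernatant, a fraction meant to be rich in axons, was sequenced. By the labels there are 2 libraries of No-SCI and 1 of SCI, whereas 2 animals per condition are stated for the study. The table has 1 FPKM value per group (fragments scaled to transcript length and library size). By the labels, then, the SCI value rests on 1 library. The table holds neither read counts nor values of single animals, and no test, SD or interval is given here for any difference.

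Complement is a cascade of serum and tissue proteins that tags cells, debris and synapses for removal. C1q, a hexamer-forming recognition protein built from A, B and C chains, activates the proteases C1r and C1s. These cleave C4 and C2, and the convertase that results cleaves C3, whose fragments coat the target and lead on to the terminal pore. C1 inhibitor, encoded by SERPING1, inactivates C1r and C1s, and CD59 blocks assembly of the pore on a cell's own membrane. In the central nervous system C1q is known chiefly as a product of microglia and macrophages, while C1r, C1s and C1 inhibitor are also made by fibroblasts and other stromal cells.

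The C1q genes lie side by side in the order C1qa, C1qc, C1qb on rat chromosome 5, with 0 other annotated genes between neighbours, and C1r lies next to C1s on chromosome 4 in RefSeq (GRCr8). Sequence before the annotated start was found for 4 of the 9 genes, C1qa, C1qb, C1r and C3, and not for C1qc. The bases before C1qa and C1qb are shown because these genes share a locus and are the most abundant of the 4. Those before C3 are shown because it is listed near the lowest value. Each run has 250 bases, 5′ to 3′ on the strand of the gene, from RefSeq on GRCr8. C1qa is at chr5:154419934-154420183 and C1qb at chr5:154407828-154408077, both on the minus strand, and C3 is at chr9:2201340-2201589 on the minus strand. Capitals mark, in C1qa and C1qb, the 4 words of 8 letters that both windows hold on the same strand, the longest they share, and in C3 a match to TTGCNNAA, the C/EBP letters.
C1qa: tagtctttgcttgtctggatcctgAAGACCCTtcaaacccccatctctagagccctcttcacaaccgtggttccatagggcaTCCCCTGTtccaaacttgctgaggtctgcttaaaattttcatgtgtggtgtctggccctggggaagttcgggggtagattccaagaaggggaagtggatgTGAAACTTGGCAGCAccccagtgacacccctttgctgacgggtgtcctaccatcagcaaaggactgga
C1qb: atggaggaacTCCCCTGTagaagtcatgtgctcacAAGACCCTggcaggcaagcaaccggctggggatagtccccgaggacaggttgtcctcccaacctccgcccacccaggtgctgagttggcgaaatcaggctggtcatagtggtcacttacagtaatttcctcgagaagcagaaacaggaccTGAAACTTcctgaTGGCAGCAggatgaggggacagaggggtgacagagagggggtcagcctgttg
C3: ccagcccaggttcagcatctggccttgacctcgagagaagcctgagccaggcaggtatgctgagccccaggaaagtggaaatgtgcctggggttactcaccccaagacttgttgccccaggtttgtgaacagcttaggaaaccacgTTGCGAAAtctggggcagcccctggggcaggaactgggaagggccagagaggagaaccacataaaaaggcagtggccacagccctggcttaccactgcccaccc

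The word TGAAACTT begins 68 bases before the start of C1qa and 65 before that of C1qb, and TGGCAGCA begins 61 and 52 bases before. In C1qa these words overlap by 1 base. On either strand TGAAACTT is in 0.953% and TGGCAGCA in 1.39% of 33469 windows of this length, AAGACCCT in 0.905% and TCCCCTGT in 1.18%. The shared words were found by comparing the windows and not chosen in advance. GGAAGT, the core letters of the myeloid factor PU.1, occurs 2 times in C1qa and 1 time, on the other strand, in C1qb, where it overlaps TGAAACTT. It occurs in 19.2% of all windows and in neither C3 nor C1r. TTGCNNAA is in C3 and, on the other strand, in C1r, and in 9.22% of all windows. GAAANNGAA, letters of an interferon response element (8.12% of windows), is in none of the 4, and TTCNNNGAA, a STAT site (7.67%), is in C1qa alone among them. A match describes letters only.

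The C1q chains had higher SCI than No-SCI values, without exception, and C1QC differed most. C1QC had 61.0 FPKM in No-SCI and 136 in SCI, 2.23-fold or a log2 ratio of 1.16. C1QB, the most abundant chain in both groups, had 95.7 FPKM in No-SCI and 151 in SCI, 1.58-fold or a log2 ratio of 0.66. C1QA had 68.1 and 92.9 FPKM, 1.36-fold or a log2 ratio of 0.45. With RNA left in a supernatant, the number of cells of a type, RNA per cell and the share left there cannot be told apart. The chains summed to 225 FPKM in No-SCI and 380 FPKM in SCI, 1.69 times as much.

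Levels of the C1q chains stayed close to each other, as the FPKM scale allows to be compared because it is per length. The highest chain was 1.57 times the lowest in No-SCI and 1.63 times in SCI. Their order changed, however. C1QC was the lowest chain in No-SCI, at 0.638 of C1QB, and the second in SCI, at 0.902 of C1QB. C1QA was 0.712 of C1QB in No-SCI and 0.614 in SCI. Without values per animal it is unknown whether C1QA and C1QC, neighbours in that order, differ beyond the spread between animals.

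**Figure D1:**
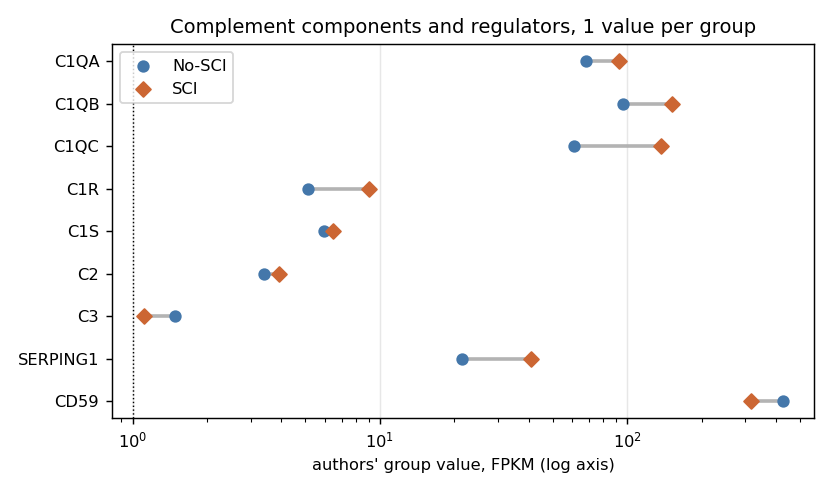
Authors' group values of the 9 complement genes in FPKM on a log axis, with circles for No-SCI, diamonds for SCI and a dotted line at 1, the lowest value in the table. The 3 C1q chains, C1R and SERPING1 lie further right in SCI, CD59 and C3 lie further left, and C1S and C2 nearly coincide.

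C1R and C1S, the proteases carried by C1q, were much less abundant and differed from each other. C1R had 5.14 FPKM in No-SCI and 9.03 in SCI, 1.76-fold or a log2 ratio of 0.81. C1S had 5.95 and 6.45 FPKM, a log2 ratio of 0.12. The C1R value was thus 0.864 of the C1S value in No-SCI and 1.40 times it in SCI. C1QB was 18.6 times as abundant as C1R in No-SCI and 16.7 times in SCI.

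C2 and C3, the downstream components, stood near the bottom of the table. C2, the protease of the classical convertase, had 3.41 FPKM in No-SCI and 3.89 in SCI, at percentiles 13.7 and 17.6 of all entries, with a log2 ratio of 0.19. C3, on which every activation route converges, had 1.48 FPKM in No-SCI and 1.11 in SCI, at percentiles 1.85 and 0.560, with a log2 ratio of −0.42. No value in the table is below 1, and the smallest value that any entry has in its higher group is 1.41. C3 is 1 of 14 entries whose larger value is no higher than its own, so it sits at the low end of what is listed.

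The digits of the values bear on such low entries. Of the values from 1.1 to 2 FPKM, 87.5% carry at least 7 significant digits, against 26.4% of those from 2 to 10 FPKM. The share is 80.9% from 10 to 11 FPKM and 63.2% from 11 to 20 FPKM. Whether a constant of 1 was added before deposit is not given in the sources used here. With 1 subtracted, the log2 ratio of C3 is −2.12 in place of −0.42, that of C1R is 0.96, and those of C1QA, C1QB and C1QC are 0.45, 0.67 and 1.17.

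The regulators went in opposite directions. SERPING1 had 21.5 FPKM in No-SCI and 40.8 in SCI, 1.90-fold or a log2 ratio of 0.93. Relative to the median of all entries its log2 ratio was 1.05, past 2-fold, and that of CD59 was −0.31. SERPING1 was 4.18 times C1R in No-SCI and 4.53 times in SCI, and 3.61 and 6.33 times C1S. CD59, the most abundant of the 9 genes in both groups, had 424 FPKM in No-SCI and 315 in SCI, a log2 ratio of −0.43, at percentiles 96.4 and 94.9. CD59 made up 61.8% of the summed FPKM of the 9 genes in No-SCI and 41.7% in SCI. The C1q chains made up 32.8% and 50.2%. CD59 was 19.7 times SERPING1 in No-SCI and 7.72 times in SCI. RefSeq lists the rat gene as Cd59b with Cd59 as a synonym, and the other 8 matched by symbol.

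Of the 9 genes, 7 had a higher and 2 a lower value in SCI, with a median log2 ratio of 0.45 beside −0.12 for all entries. With a call defined as a difference of at least 2-fold, 1 gene, C1QC, was higher (11.1%), where 7.93% of all entries were. None of the 9 was lower by that fold, where 12.1% of all entries were. At 1.5-fold, C1QB, C1QC, C1R and SERPING1 were higher, 4 of 9 beside 16.9% of all entries, and none was lower beside 26.3%. C1QC stood at percentile 93.9 of the log2 ratios of all entries, SERPING1 at 91.1, C1R at 89.2, C1QB at 85.5 and C1QA at 78.2. C2 and C1S stood at 66.3 and 62.6, and CD59 at 33.5 with C3 just above it. None was thus at an extreme of the table, and with 9 genes the shares are coarse.

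**Figure D2:**
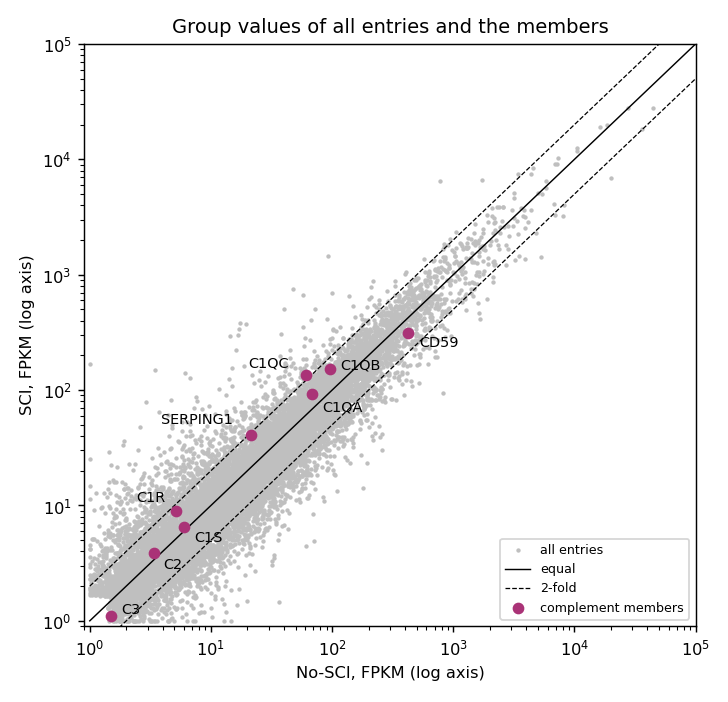
Authors' SCI value against No-SCI value of all entries (grey) and of the 9 complement genes (purple), both in FPKM on log axes, with a solid line at equality and dashed lines at 2-fold. C1QC lies just above the upper dashed line, SERPING1, C1R and C1QB below it, and C3 at the lower left end of the table.

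Other genes of the cascade were taken from 5 lists by role, 51 genes of which 28 have an entry. Of these, 17 had a higher and 11 a lower value in SCI, with a median log2 ratio of 0.21. At 2-fold, 5 were higher (17.9%) and 3 lower (10.7%), beside the 7.93% and 12.1% of all entries. With 1 subtracted from both values, 10 were higher and 3 lower, beside 10.4% and 16.2% of all entries. The median of these genes was 2.60 FPKM in No-SCI and 4.13 in SCI, below the 17.2 and 15.6 FPKM of all entries, so many lie where the low end of the table limits a ratio.

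Among lectin pathway and pattern recognition genes, 6 of 11 are listed, and 0 differed by 2-fold as deposited. With 1 subtracted, COLEC11, COLEC12, PTX3 and FCNA, 4 of the 6, were higher by 2-fold, beside 10.4% of all entries. Their No-SCI values were 1.46 to 2.02 FPKM as deposited, so the subtraction leaves small values to divide by. The most abundant of the list was MASP1, a protease of the lectin pathway, with 24.2 FPKM in No-SCI and 12.7 in SCI, a log2 ratio of −0.94. FCNA, FCNB, COLEC11, COLEC12 and PTX3 were at most 3.84 FPKM. Among early components, 4 of 7 are listed and CFD, the factor D protease of the alternative pathway, had 1.95 FPKM in No-SCI and 5.66 in SCI, a log2 ratio of 1.54 as deposited and 2.30 with 1 subtracted. C4A and C4B had 2.29 and 2.18 FPKM in No-SCI and 2.59 and 1.61 in SCI. These are near-identical copies between which reads can be split, so their separate values are uncertain. Factor B (CFB), which lies next to C2 in the genome, has no entry.

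Of the terminal components 3 of 7 are listed. C6, a part of the membrane pore, had 2.59 FPKM without injury and 11.3 with it, a log2 ratio of 2.12 as deposited and 2.69 with 1 subtracted. C8G and C9 were at most 3.07 FPKM, and C9 was past 2-fold, at a log2 ratio of 2.41, only with 1 subtracted. No entry was found for C5, C7, C8A or C8B.

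Among regulators other than SERPING1 and CD59, 7 of 15 are listed. CD55, which speeds decay of the convertases at the cell surface, had 2.76 and 18.2 FPKM, a log2 ratio of 2.72, or 3.29 with 1 subtracted, the largest of the 28 genes. SUSD4, a membrane regulator, had 40.4 and 17.6 FPKM, a log2 ratio of −1.20. CR1L, the rodent regulator Crry, had 46.4 and 45.4 FPKM. CLU, the chaperone clusterin, was the most abundant with 1103 and 613 FPKM, a log2 ratio of −0.85. C1QBP, a mitochondrial protein named for binding C1q, had 32.7 and 95.6 FPKM, a log2 ratio of 1.55.

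Receptors were listed for 8 of 11 genes and went both ways. C3AR1, the receptor for C3a, had 11.5 FPKM in No-SCI and 3.97 in SCI, a log2 ratio of −1.53. ITGB2, the β chain of complement receptor 3, had 12.2 and 5.92 FPKM, a log2 ratio of −1.04, while ITGAM, its α chain, had 2.49 and 2.41 FPKM. C5AR2, a second receptor for C5a, had 1.87 and 9.27 FPKM, a log2 ratio of 2.31 as deposited and 3.25 with 1 subtracted. C5AR1 had 8.32 and 11.3 FPKM, a log2 ratio of 0.44. CALR, calreticulin, the most abundant of the list, had 72.2 and 63.2 FPKM.

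Values of cell type markers are set beside these results, since cells were meant to be pelleted. A microglia and macrophage list of 24 genes, with no C1q gene in it, has 23 listed, with no entry for CTSS. Its summed level was 1449 FPKM in No-SCI and 1919 in SCI. The median log2 ratio was −0.15, with 10 genes higher and 13 lower, and 5 higher (21.7%) and 4 lower (17.4%) by 2-fold, beside 7.93% and 12.1% of all entries. The most abundant were AIF1, with 477 and 417 FPKM, and LYZ2, a lysozyme of macrophages, with 201 and 611 FPKM. Ratios of the C1q chains to such genes differed with the gene chosen. C1QB was 0.200 of AIF1 in No-SCI and 0.363 in SCI, but 0.477 and 0.247 of LYZ2. The log2 ratio of C1QB was above that of 18 of the 23 markers and below that of 5, namely CD14, OLFML3, LYZ2, CD68 and CD163, with log2 ratios of 1.75, 1.70, 1.61, 1.43 and 1.07. The markers lower by 2-fold were CX3CR1, CSF1R and P2RY13, with log2 ratios of −1.25, −1.17 and −1.02, and P2RY12, which was just past the fold. These markers past 2-fold were named after their values were seen. The part that microglia or macrophages had in the C1q values was not tested.

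Markers of meningeal and perivascular fibroblasts had the highest median log2 ratio of the marker lists. Of 21 genes 20 are listed, with no entry for SLC22A6, and their summed level was 231 FPKM in No-SCI and 2186 in SCI. Of these, 15 were at least 2-fold higher (75%, beside 7.93% of all entries) and 1 lower (5.0%, beside 12.1%), with a median log2 ratio of 2.53. The lists were chosen with earlier results of these data known, so neither these shares nor the ranking of the lists is a test. MGP had 47.5 and 757 FPKM, and CRABP2 17.3 and 382 FPKM. C1R, C1S and SERPING1, which fibroblasts can express, had log2 ratios of 0.81, 0.12 and 0.93, all below that median. The part of fibroblast RNA in them was not tested.

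The other marker lists had median log2 ratios from −1.62 to 0.27. Endothelial genes (12 of 15 listed, summing to 96.5 and 149 FPKM, with no entry for PECAM1, TEK and TIE1) had a median log2 ratio of 0.27. Of these, 4 were at least 2-fold higher (33.3%, beside 7.93% of all entries) and 1 lower (8.33%, beside 12.1%). The most abundant, ERG and EGFL7, were at 1.13 and 1.11. Astrocyte genes (11 of 16, summing to 25642 and 21370 FPKM), which include CLU, were at −1.01. The most abundant, APOE and GLUL, were at 0.18 and −0.06, and GFAP, AQP4, S100B, SLC1A3 and ALDOC had no entry. Oligodendrocyte genes (13 of 14, summing to 52673 and 30336 FPKM, with no entry for MBP) were at −1.62. MOBP, the most abundant, was at −0.68. Neuronal genes (14 of 16, summing to 1930 and 1750 FPKM, with no entry for SNAP25 and NEFM) were at −0.52. The most abundant, GAP43 and THY1, were at 0.14 and −1.13. Neutrophil and blood genes (9 of 13, summing to 606 and 644 FPKM, with no entry for MPO, HBA1, HBA2 and ALAS2) were at −0.53. Of these, 3 were at least 2-fold higher (33.3%, beside 7.93% of all entries) and 1 lower (11.1%, beside 12.1%). The most abundant were HBB, at −0.08, and S100A8, at 1.54. The label spinal cord thus had its myelin and neuronal genes in the table, though some defining markers had no entry.

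**Figure D3:**
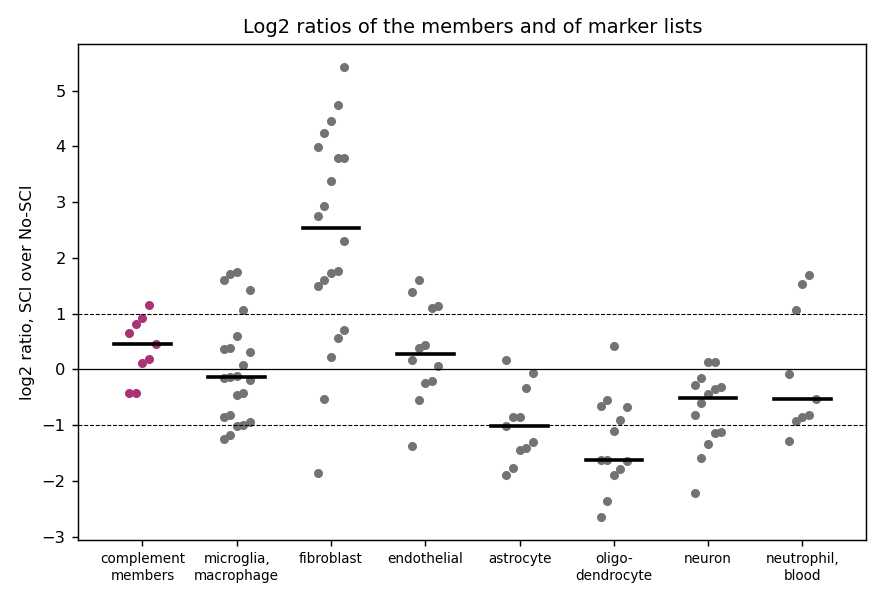
Log2 ratio of the authors' SCI to No-SCI value for each complement gene (purple) and each listed marker gene (grey), with a bar at the median of each list and dashed lines at 2-fold. The complement genes have their median at 0.45, below the fibroblast list at 2.53 and above the other lists. Of those, the endothelial list is at 0.27 and the microglia and macrophage list at −0.15.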

How the data were processed

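Libraries were strand-specific and made from supernatant RNA after removal of ribosomal RNA. The authors brought all libraries down to the read number of the smallest, aligned to rn6 with STAR 2.5.4b and compared groups with Cuffdiff (1.3.0 in the submitters' processing notes) with normalization by upper quartile. Each deposited FPKM is an estimate for a whole group, 1 for No-SCI and 1 for SCI. Columns of the authors' own comparison (fold change, log2 fold change, p, q and a significance mark) were not used. No measurement column lacked a group (0).

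The SCI value was divided by the No-SCI value and put on a log2 scale with no pseudocount and no filter, with percentiles over 12758 symbols. For 13 symbols listed more than once the entry with the larger mean was kept. A call is a difference of at least 2-fold. No test across animals was possible. Named genes are all members, genes of the wider lists past 2-fold, the most abundant gene of each wider list and the 2 most abundant of each marker list, by mean of the group values. Some genes of these lists are not reported here. C4A, C4B, CR1L, C5AR1, ITGAM and other genes named beside these were chosen after their values were seen. Members and lists were chosen with earlier results of these data known. Symbols were matched to RefSeq on GRCr8 (11974 by symbol, 253 by synonym, 531 by neither), which was used for names, neighbours and promoter letters, with values made on rn6. Promoter sequences were found for 4 of the 9 genes. The ratio step was checked on made-up tables with known ratios. Alternatives were a pseudocount of 1, 1 subtracted, 3 scalings, folds of 1.3, 1.5 and 3, a mean of at least 5 FPKM, means for medians and sums over repeated symbols. The sums were applied to the marker lists, where 0 genes had a second row, so they could change nothing. Python 3.11.15, numpy 2.4.6, pandas 2.3.3 and matplotlib 3.10.9 were used.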

Additional observations from a re-analysis of the deposited data

How the results depend on the processing

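The log2 ratio of each of the 9 genes was recomputed under 5 settings, and all 45 values kept their sign. No sign could have changed, so this is no measure of robustness. Adding or subtracting 1 cannot reverse which group is higher. The 3 scalings shift every ratio upwards, by less than the size of the negative ratios of C3 (−0.42) and CD59 (−0.43). Of the 45 values, 3 crossed 2-fold, namely SERPING1 after median centring (1.05) and upper quartile scaling (1.03), and C3 with 1 subtracted (−2.12). Centring moves every log2 ratio by 0.12, the same total by 0.05 and the same upper quartile by 0.10. The count of the 9 genes past the fold upwards was 1, and it was 5 at 1.3-fold, 4 at 1.5-fold, 0 at 3-fold, 2 after median centring and 2 after upper quartile scaling, where 24.6%, 16.9%, 3.17%, 9.53% and 9.34% of all entries were. Downwards it was 0, and it was 2 at 1.3-fold and 1 with 1 subtracted, beside 35.7% and 16.2% of all entries. For the 28 other complement genes the count upwards was 5, and it was 13 at 1.3-fold, 3 at 3-fold and 10 with 1 subtracted, the last beside 10.4% of all entries. The count downwards was 3, and it was 6 at 1.3-fold, 5 at 1.5-fold and 0 at 3-fold, where 35.7%, 26.3% and 3.27% of all entries were. The mean log2 ratio of the microglia and macrophage list was 0.032 where its median was −0.15. For the neutrophil and blood list the mean was −0.022 and the median −0.53. The astrocyte list was at −0.98 by its mean and −0.89 after median centring. No replicate could be left out and no spread or depth weighed, because the table has 1 value per group.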

Other observations

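Genes whose proteins share the globular domain of C1q, but which are not part of the complement cascade, were also looked at. Of 23 such genes 14 are listed, 7 higher and 7 lower in SCI, with a median log2 ratio of −0.09 beside 0.66 for the C1q chains. The most abundant was C1QTNF5, with 83.8 FPKM in No-SCI and 49.1 in SCI. By 2-fold 4 were higher (28.6%) and 2 lower (14.3%), beside 7.93% and 12.1% of all entries, with C1QTNF7 counted by the floor as its No-SCI value. C1QTNF1 had 15.8 and 47.5 FPKM, C1QTNF2 had 2.81 and 12.9 FPKM, and C1QL3 had 2.51 and 5.33 FPKM. C1QTNF7 had 11.4 FPKM in SCI but stood at 1, the floor, in No-SCI, which allows no fold. Those lower by 2-fold were CBLN2, a synaptic organizer, with 6.24 and 2.84 FPKM, and EMILIN2, a matrix protein, with 5.59 and 2.57 FPKM.

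The entries nearest to the mean point of the C1q chains, by distance in the plane of both log2 values, were NIPSNAP3B (0.027), RPP25L (0.027) and SNRPB (0.029). The chains themselves lay at 0.43 (C1QA), 0.47 (C1QB) and 0.30 (C1QC), with 206, 252 and 88 entries closer. With 2 group values, such nearness describes level and ratio only.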
